A study of Bos taurus with 12 samples.

Results

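Insulin removal was followed across all genes in 6 of the 12 libraries of the study, 3 of cells differentiated in the full medium (rDM) and 3 of cells in the same medium without insulin (rDM 0% Ins). The 6 libraries were chosen by their medium, and each library without insulin was paired with the rDM library of the same replicate letter. The cells were bovine stromal vascular cells, named MSC in the labels, which are adherent precursors from fat tissue. Cells of 3 donors (A, B and C) were differentiated for 12 days and 1 library of polyadenylated RNA was made per donor and medium, as PCR-amplified cDNA read on a Nanopore sequencer. rDM contained insulin at 10 μg/mL together with 5 μM rosiglitazone and the steroids hydrocortisone (25 nM) and progesterone (17 nM). rDM 0% Ins contained the last 3 at the same concentrations and no insulin. The other 6 libraries, from medium without rosiglitazone (rDM 0% Ros) and without hydrocortisone and progesterone (rDM 0% HC/PR), entered the estimate of the spread and are described only for 4 genes. The cells were a mixed primary population from Belgian Blue cattle, grown and differentiated in serum-free medium in 2D culture. The study states an age range and the sex of its bovine donors in differing terms in different places. The sources give no age for a single donor. Each donor was also 1 batch of mRNA extraction, so that donor and batch cannot be told apart.

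Insulin binds a receptor tyrosine kinase and acts through PI3K and AKT to raise glucose uptake and lipid synthesis and to restrain lipolysis in fat cells. It is a standard inducer of adipogenesis, and at high concentrations it also engages the IGF-1 receptor, through which much of its effect on precursor cells is thought to run. Rosiglitazone, which was present in both media compared here, activates PPARγ, the nuclear receptor that drives the fat cell gene program, so the comparison concerns insulin in the presence of that drive.

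The deposited identifiers could not be paired with gene names here, as 0 of the 22372 gene identifiers and 0 of the 38030 transcript identifiers matched the reference table. The genes are therefore described by expression level, size of change and evenness over donors, with 4 of them given by identifier, and neither the labelled cell type nor any pathway was checked against its marker genes. In bulk RNA, fewer cells of a type and less RNA per cell cannot be told apart.

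The estimated reads were 1153853, 673121 and 424759 in rDM A, B and C, and 578595, 471790 and 302754 in rDM 0% Ins A, B and C. Each library without insulin was thus shallower than the rDM library of its donor. Levels per gene are CPM, the reads of a gene scaled to a common library total, from the batch-corrected table of the authors, in which 3 reads correspond to 2.71, 4.53 and 7.21 CPM in rDM and to 5.40, 6.70 and 10.2 CPM without insulin. PCR copies of a molecule are not independent of each other, and these limits hold for counting error alone. Both members of pairs A and B were in one sequencing pool and both members of pair C in the other.

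Without insulin, 79 genes were lower and 61 were higher than in rDM (adjusted p under 0.05). These 140 genes are 1.51% of the 9267 genes tested, with 0.852% lower and 0.658% higher. The test was limma on log2(CPM + 1) with the donor as a block, a trend of the spread with the level and Benjamini-Hochberg adjustment. At an unadjusted p under 0.05 there were 1162 genes. The adjusted p-values ran from 0.000786 to 0.0496 among the called genes, with the next gene at 0.0515, and 38 of them, 23 lower and 15 higher, were under 0.01. The trend was not named in the planned design and was set after the data were seen. When the spread was assumed equal at all levels, limma called only 2 genes, 1 in each direction, although 1029 had an unadjusted p under 0.05, and none of the 4 genes given by identifier was called (limma adjusted p of 0.107 to 0.357).

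The sizes of change of the called genes describe what the test selected. The median log2 fold change was -1.70 for the 79 lower genes and 1.50 for the 61 higher genes, with median standard errors of 0.307 and 0.277. Among the lower genes 68 changed by more than 2-fold, and among the higher genes 55. Fold changes are of rDM 0% Ins against rDM on the log2(CPM + 1) scale, where the added 1 makes the changes of genes with low values look smaller than they are. Over all 9267 genes the median log2 fold change was 0.19, its median absolute value was 0.51 and 22.7% were past 2-fold, mostly with few reads behind them, as the median standard error was 0.615. With TMM scaling, which by construction centres the bulk of the genes near 0, the median was -0.02. With TMM 146 genes were called, 109 lower and 37 higher, which is 74.7% lower against 56.4% with the library totals. The balance was near an even split, with slightly more higher than lower genes, without the donor block (48.3% lower) and with the 6 libraries alone (49.3% lower).

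**Figure D1:**
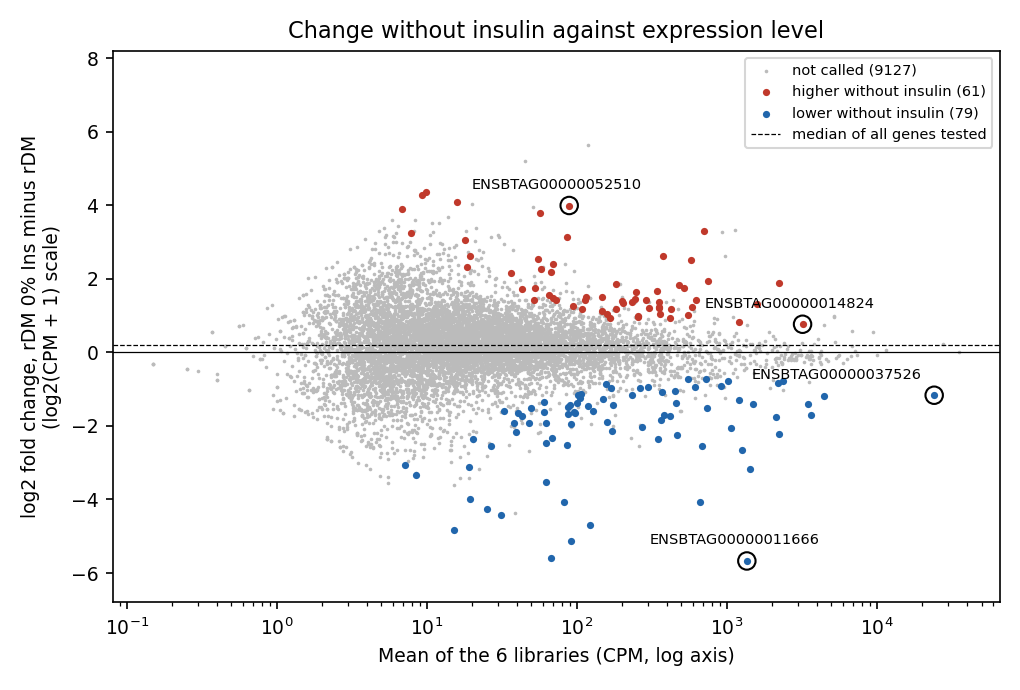
Change without insulin against expression level for the genes tested; each point is a gene, the x axis is its mean over the 6 libraries (CPM, log axis) and the y axis its log2 fold change of rDM 0% Ins against rDM, with called genes in colour, the 4 genes given by identifier circled, a dashed line at the median of 0.19 and the 8 genes at 0 in all 6 libraries left out. The fan of uncalled genes is wide at low levels and narrow at high levels, and among the called genes the lower ones reach the highest levels.

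The genes that fell had a median level of 149 CPM and those that rose 182 CPM, against 16.5 CPM for all genes tested, and some of the most abundant genes were among those that fell. Together the 79 lower genes made up 9.47%, 9.93% and 9.22% of all CPM in rDM A, B and C and 4.04%, 2.75% and 4.32% in rDM 0% Ins A, B and C. Every library without insulin was thus below every rDM library, and donor B had the lowest sum. One gene accounted for part of this sum, but without it the others still went from 6.14%, 6.54% and 6.04% to 2.42%, 1.78% and 2.29%. The 61 higher genes made up 1.15%, 1.07% and 1.16% of CPM in rDM and 2.71%, 3.16% and 3.14% without insulin. These sums restate the calls, which were made on the same values, and are given with no test.

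**Figure D2:**
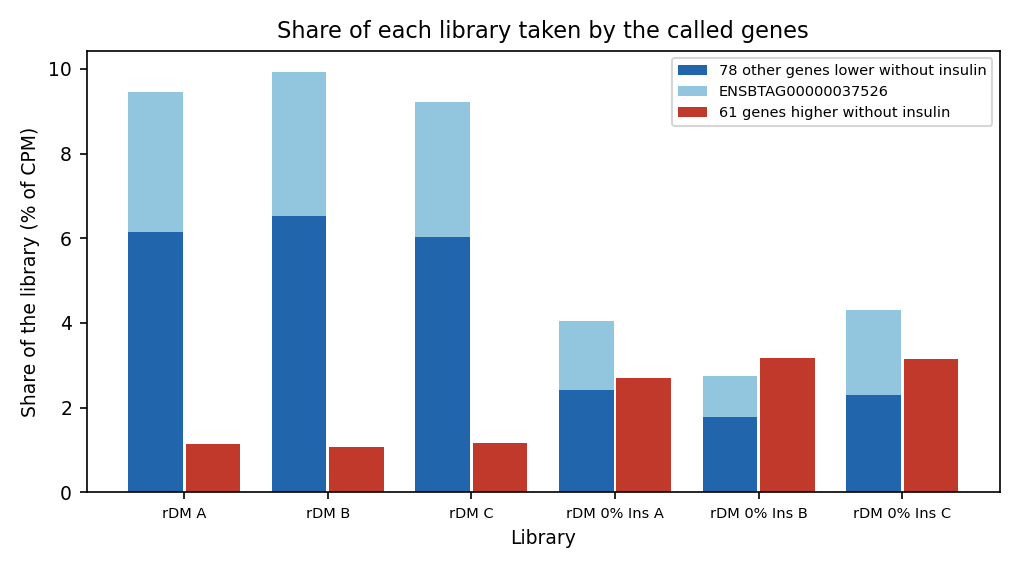
Share of all CPM (%, y axis) in each of the 6 libraries; the stacked blue bars are the 79 lower genes, with their most abundant member, ENSBTAG00000037526, in light blue, and the red bars are the 61 higher genes. The lower genes held 9.22% to 9.93% in rDM and 2.75% to 4.32% without insulin.

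By expression level, calls were concentrated among well-covered genes. At a mean of 500 to 2000 CPM, 23 of 218 genes were called (10.6%), and at 2000 CPM or more 10 of 95 (10.5%), of which 8 were lower and 2 higher. At 100 to 500 CPM the count was 52 of 957 genes (5.43%), 25 lower and 27 higher, and at 20 to 100 CPM it was 42 of 2855 (1.47%), 27 lower and 15 higher. Under 20 CPM only 13 of 5142 genes were called (0.253%). That class also had the largest apparent changes, with a median absolute log2 fold change of 0.66 and 31.0% of its genes past 2-fold, against 0.18 and 8.42% at 2000 CPM or more. The median SD of the 3 paired log2 ratios fell over the same classes from 1.16 to 0.19. This SD is of single pairs and holds differences between donors as well as counting error.

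The typical direction also followed level. The median log2 fold change was 0.22 under 20 CPM, 0.23 at 20 to 100 CPM, 0.11 at 100 to 500 CPM, -0.03 at 500 to 2000 CPM and -0.11 at 2000 CPM or more. With TMM scaling the same medians were 0.03, -0.00, -0.12, -0.26 and -0.34. With either scaling the median was lower at high levels than at low ones, and at 100 to 500 CPM its sign depended on the scaling. This came mainly from donors B and C. The median paired ratio of all genes and of those with at least 100 CPM was -0.00 and -0.05 in donor A, 0.32 and 0.11 in B and 0.37 and 0.04 in C. Among the uncorrected transcripts the same medians were 0.02 and 0.01 in A, 0.02 and -0.13 in B and 0.00 and -0.22 in C. The 10 most abundant genes of each library held 13.6%, 15.7% and 16.3% of CPM in rDM A, B and C and 16.3%, 14.0% and 13.2% without insulin, a fall in donors B and C and a rise in donor A. At an equal depth of 295288 reads, 8823, 9110 and 9122 genes were above 0 in rDM and 8756, 9582 and 9824 without insulin, again more without insulin in B and C and fewer in A. The part of these library features in the medians by level was not tested.

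By size, moderate changes were the most frequent and the steepest ones were the least even. Of the 79 lower genes, 11 fell by less than 2-fold (median level 618 CPM), 39 by 2-fold to 4-fold (118 CPM), 14 by 4-fold to 8-fold (223 CPM) and 15 by more than 8-fold (62.3 CPM). Of the 61 higher genes, 6 rose by less than 2-fold (336 CPM), 36 by 2-fold to 4-fold (240 CPM), 9 by 4-fold to 8-fold (57.9 CPM) and 10 by more than 8-fold (16.9 CPM). Genes past 8-fold reached mean levels of 709.6 CPM among the rises and 1421 CPM among the falls. The median SD of the paired ratios past 8-fold was 1.58 among the lower genes and 0.72 among the higher genes.

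Large changes that were not called were frequent as well. Of the genes with a mean of at least 20 CPM that were more than 4-fold lower, 24 were called and 15 were not, and of those more than 4-fold higher, 11 were called and 30 were not. Of the 30 uncalled higher genes 27 had the same sign in all 3 pairs, and so had 13 of the 15 uncalled lower genes. Over all genes with at least 20 CPM this share was 44.1%, and picking genes past 4-fold itself favours a shared sign. The median SD of the paired ratios was 1.69 in the uncalled and 0.63 in the called higher genes, and 1.40 and 1.15 in the uncalled and called lower genes. A larger SD in the uncalled genes follows from the test itself, which calls a gene of a given fold by its spread.

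Some genes were at 0 in one medium and above 0 in every library of the other. Among all genes in the table, 74 were above 0 in the 3 rDM libraries and at 0 in the 3 libraries without insulin, of which 4 were over 3 reads in each rDM library. In the opposite direction there were 37 genes, of which 3 were over 3 reads in each library without insulin. The library without insulin was the shallower one in every pair, and the part of depth in these counts was not tested. Of the 74 genes 27 passed the filter on low values and were tested, and of the 37 genes 16. These genes were picked for being at 0 in one medium, and of the 2 media the other alone could bring them past the filter, so their calls restate that choice. Of all genes tested 1.51% were called. Of the 27, 1 was called, at 45.1, 31.7 and 14.4 CPM in rDM A, B and C. Against the mean limit of 3 reads per library it was at least 4.10-fold lower without insulin. Of the 16, 3 were called. They were at 18.0, 24.6 and 16.9 CPM, at 16.2, 22.3 and 16.9 CPM, and at 14.4, 13.4 and 13.5 CPM without insulin, which is at least 4.12-fold, 3.84-fold and 2.86-fold higher than the mean limit in rDM. At this depth, a gene at 0 cannot be told apart from one expressed at a low level.

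The direction of change was shared by the 3 donors for every called gene. All 79 lower and all 61 higher genes had the same sign in pairs A, B and C, and for each of them the 3 libraries without insulin lay entirely outside the range of the 3 rDM libraries. The test favours such genes. Of all genes tested, 8.03% lay entirely below and 15.4% entirely above rDM, 35.6% had the same sign in all pairs, and at a mean of at least 20 CPM it was 44.1% (1821 of 4125 genes, 1166 up and 655 down). These counts use library totals, where a typical gene stood 0.19 log2 units higher without insulin, against -0.02 with TMM. Among the uncorrected transcripts, scaled with TMM, more lay entirely below rDM (7.24%) than entirely above (4.93%). The part of the scaling in the excess of rises among the genes was not tested. The share with 1 sign rose with level from 28.7% under 20 CPM to 61.1% at 2000 CPM or more.

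The size of the change was less evenly shared than its direction. Among the lower genes the median paired log2 ratio was -1.41 in donor A, -1.93 in donor B and -1.69 in donor C, and the largest fall was in donor B for 54 of 79 genes, in C for 14 and in A for 11. Among the higher genes the medians were 1.31, 1.66 and 1.49, and the largest rise was in donor B for 31 of 61 genes, in A for 16 and in C for 14. Over all genes tested, donor B had the largest absolute ratio in 36.9%, donor C in 37.7% and donor A in 25.4%. Among all genes with at least 20 CPM it was donor B in 40.4%, C in 35.7% and A in 23.8%. For 43 of the 61 higher genes (70.5%) and 45 of the 79 lower genes (57.0%) the 3 ratios lay within 1 log2 unit of each other, against 57.3% of all genes with at least 20 CPM. The median SD of the ratios was 0.365 among the higher and 0.421 among the lower genes, 0.462 among all genes with at least 20 CPM and 0.348 among all genes at 100 to 500 CPM, the class of the called genes' median levels. Against genes of that level the called genes were thus not more even in size. A range over 3 log2 units occurred in 10 called genes, 7 lower and 3 higher, with donor B the most extreme in 9, and 7 of the 10 were at 0 in at least 1 library.

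**Figure D3:**
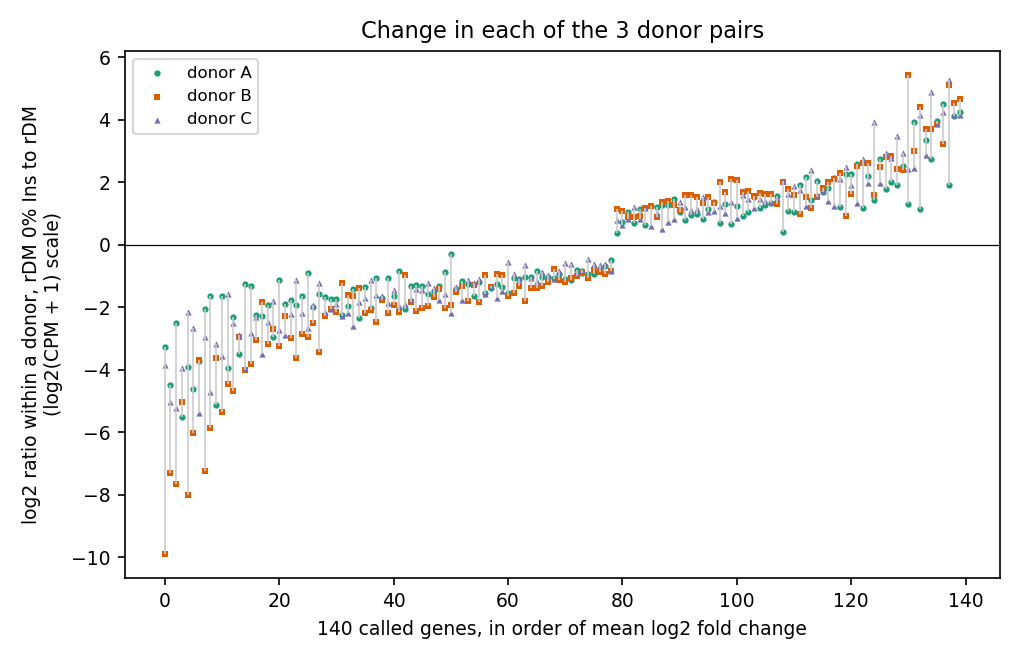
Log2 ratio of rDM 0% Ins to rDM within each donor (y axis, log2(CPM + 1) scale) for the 140 called genes, ordered on the x axis by their mean change; symbols mark the donors and a grey line joins the 3 ratios of a gene. Every called gene keeps its sign in the 3 pairs, with medians of -1.41, -1.93 and -1.69 for the lower and 1.31, 1.66 and 1.49 for the higher genes in donors A, B and C.

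As a description across genes, which are not independent replicates, the paired ratios of 2 donors went together mainly at high level. At a mean of at least 100 CPM (1270 genes) the correlation of the ratios was 0.51 for donors A and B, 0.56 for A and C and 0.71 for B and C. Over all 9267 genes it was 0.15, 0.14 and 0.25. All of these points share the donors' libraries and the scaling. The number of genes called depended on single libraries. Without rDM A, B or C, limma called 44, 19 and 32 genes, without rDM 0% Ins B or C 43 and 28, and without rDM 0% Ins A 159. Without all libraries of donor A, B or C it called 28, 36 and 10.

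The most abundant gene that fell, ENSBTAG00000037526, was at 33216, 33949 and 31798.5 CPM in rDM A, B and C and at 16214, 9649 and 20272 CPM without insulin. It stood at 32988 ± 1093 CPM in rDM and 15378 ± 5360.5 CPM without insulin (SD, n = 3), and the groups were far apart, with the spread wider without insulin. The log2 fold change was -1.17 (SE 0.27, 95% interval -1.75 to -0.59, limma adjusted p = 0.0496), with paired ratios of -1.03, -1.81 and -0.65. This call sits at the threshold, and with TMM scaling the log2 fold change was -1.40 (limma adjusted p = 0.0638). The call was also lost without donor A, B or C (limma adjusted p of 0.214, 0.355 and 0.157). The gene remained far above its level without rosiglitazone (209.5 ± 103 CPM), with a difference of 6.23 on the log2 scale (SE 0.27, limma adjusted p = 2.95e-08), in a comparison that called 2.07% of genes. Without HC/PR it was at 23411 ± 1668 CPM, and rDM 0% Ins did not differ from it past the threshold (-0.67, SE 0.27, limma adjusted p = 0.312; 1.12% of genes called).

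The steepest fall among called genes with a mean of at least 20 CPM over the 6 libraries was that of ENSBTAG00000011666, from 2828, 3071 and 1862 CPM in rDM A, B and C to 290 CPM, 2.23 CPM and 129 CPM. The value in rDM 0% Ins B is a single read, so donors A and C kept a low level whereas in donor B the gene was near the detection limit. The log2 fold change was -5.67 (SE 1.19, 95% interval -8.23 to -3.11, limma adjusted p = 0.0329), with paired ratios of -3.28, -9.89 and -3.84. Without donor B it was -3.56 (limma adjusted p = 0.00117). Without donor A it was -6.87 (limma adjusted p = 0.137) and without donor C -6.59 (limma adjusted p = 0.239), so the direction stayed the same while the call was lost without either of these donors. The mean level without insulin was 140.3 ± 144 CPM, between 2587 ± 639.7 CPM in rDM and 2.04 ± 3.53 CPM without rosiglitazone (SD, n = 3). The difference between the insulin-free and rosiglitazone-free media was 4.69 (SE 1.19) and did not pass the threshold (limma adjusted p = 0.0649), nor did that from rDM 0% HC/PR, with 1343 ± 448 CPM (-4.70, SE 1.19, limma adjusted p = 0.0877). In rDM 0% Ros A, B and C the gene had only 0, 2 and 0 reads. The size of its difference from that medium is therefore imprecise and depends on the added 1.

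The steepest rise above the same minimum was that of ENSBTAG00000052510, which passed this minimum through the libraries without insulin. In rDM it had 7.22, 16.6 and 7.21 CPM, which were only 8, 11 and 3 reads, so that the size of its fold change is imprecise, and without insulin 185, 163 and 156 CPM. The 3 donors reached nearly the same level, 168 ± 15.5 CPM against 10.4 ± 5.43 CPM in rDM (SD, n = 3). The log2 fold change was 3.99 (SE 0.55, 95% interval 2.81 to 5.18, limma adjusted p = 0.00488), with paired ratios of 4.50, 3.22 and 4.26, and with TMM scaling 3.77 (limma adjusted p = 0.00351). Without donor A it was 3.74 (limma adjusted p = 0.120) and without donor C 3.86 (limma adjusted p = 0.0679), so the call was lost in both cases, and without donor B 4.38 (limma adjusted p = 0.00664). Without rosiglitazone this gene was at 76.3 ± 11.6 CPM, and the difference of 1.14 between the 2 media (SE 0.55) did not pass the threshold (limma adjusted p = 0.410). Without HC/PR it was at 14.4 ± 17.7 CPM, 4.19 log2 units under the insulin-free medium (SE 0.55, limma adjusted p = 0.00289). In rDM 0% HC/PR A, B and C the gene had only 4, 13 and 1 reads. The size of this difference is therefore imprecise as well and depends on the added 1.

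The most abundant gene that rose, ENSBTAG00000014824, was at 2749, 2072 and 2316 CPM in rDM A, B and C and at 3544, 4584 and 3976 CPM without insulin. The groups did not overlap, with 2379 ± 343 and 4035 ± 523 CPM (SD, n = 3), but the rise was small in donor A, with paired ratios of 0.37, 1.15 and 0.78. The log2 fold change was 0.76 (SE 0.17, 95% interval 0.39 to 1.14, limma adjusted p = 0.0480), and with TMM scaling 0.53, past no threshold (limma adjusted p = 0.344). The call was lost without donor A, B or C as well (limma adjusted p of 0.137, 0.343 and 0.449). The levels were 4268 ± 477 CPM without rosiglitazone and 2521 ± 142 CPM without HC/PR, and neither differed from rDM 0% Ins past the threshold (-0.08, limma adjusted p = 0.904, and 0.67, limma adjusted p = 0.0963).

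**Figure D4:**
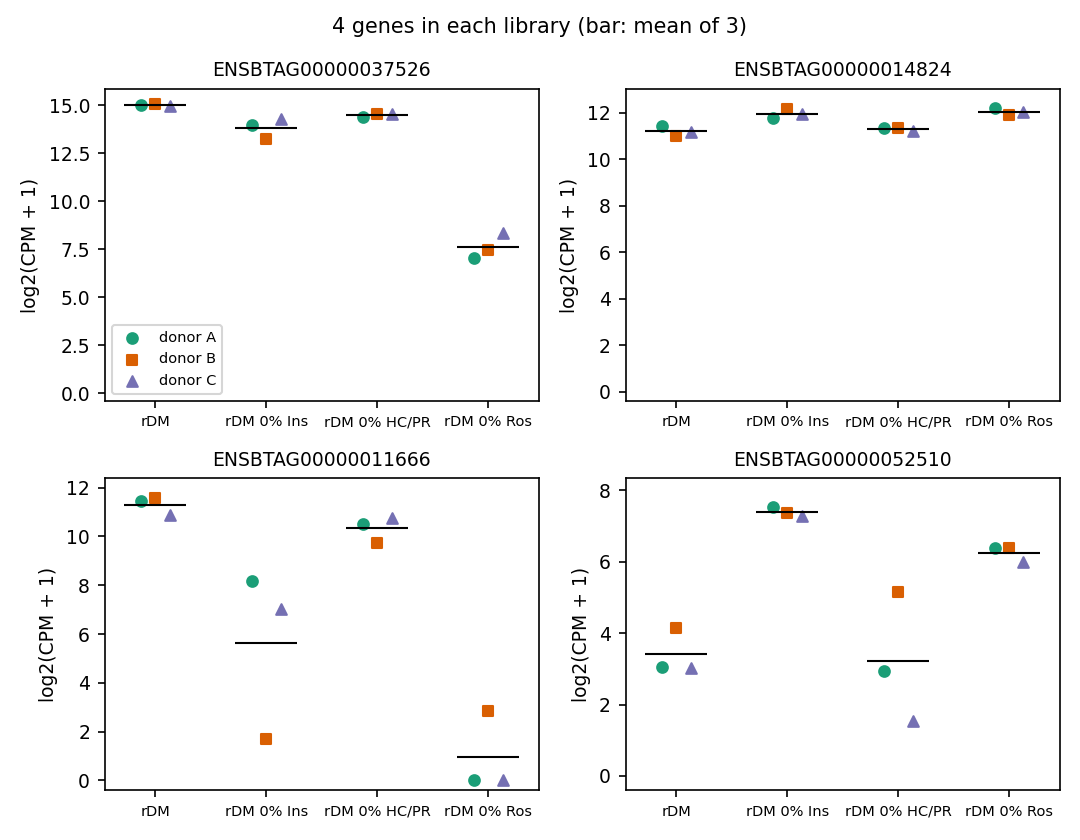
Level of the 4 genes given by identifier, as log2(CPM + 1), in each of the 12 libraries by medium; symbols mark the donors and bars the mean of 3. ENSBTAG00000052510 is at 156 to 185 CPM in every library without insulin, while ENSBTAG00000011666 spreads from 2.23 to 290 CPM there.

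The number of calls among the uncorrected transcripts, which have not passed through the batch correction, differed widely between tests. In edgeR's quasi-likelihood test, run on these estimated reads with a block for the donor, 3 of 5372 transcripts were called (0.0558%), all of them higher without insulin, while 611 had an unadjusted p under 0.05. DESeq2 on the same transcripts called 170 (3.16%), 117 lower and 53 higher, of which 168 had the same sign in all 3 pairs. Their median paired log2 ratios in A, B and C were -1.09, -1.32 and -1.27 for the lower and 1.38, 1.52 and 1.51 for the higher transcripts, and donor B was the most extreme in 83, C in 47 and A in 40. With no filter on low counts edgeR called 284 transcripts, and the cause of these differences was not tested. Of the 48 transcripts with an edgeR adjusted p under 0.1, 32 were lower and 16 higher.

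The 3 transcripts called by edgeR were 740, 2196 and 2674 bases long. The first had 14, 9 and 2 reads in rDM A, B and C and 88, 100 and 34 reads without insulin, or 14.4, 13.4 and 4.78 CPM against 189, 188 and 96.7 CPM. Its log2 fold change was 3.89 (edgeR adjusted p = 0.0243), with paired ratios of 3.62, 3.72 and 4.08. With so few reads in rDM these ratios are imprecise, and their closeness does not show an even change. The second rose from 64.9, 239 and 172 CPM to 362, 2004 and 1066 CPM, by 2.75 on the log2 scale (edgeR adjusted p = 0.0262), with paired ratios of 2.46, 3.06 and 2.62. Its level in rDM 0% Ins B stood well above that in A, but so did its level in rDM B. The third rose from 177, 223 and 432 CPM to 707, 586 and 1089 CPM, by 1.58 (edgeR adjusted p = 0.0343), with ratios of 1.99, 1.39 and 1.33. For each of the 3 the libraries without insulin lay above those of rDM, as did 4.93% of all transcripts tested, with 7.24% entirely below. The 3 were picked by the test on these same values, so this separation restates the calls.

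Over all transcripts, evenness followed level as it did for the genes. The share with the same sign in all pairs was 30.2% under 20 CPM, 38.3% at 20 to 100 CPM, 50.6% at 100 to 500 CPM, 55.5% at 500 to 2000 CPM and 54.2% at 2000 CPM or more. The median log2 fold change went from 0.16 in the lowest class to -0.25 in the highest, here with TMM scaling.

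Change also went with transcript length, a feature of the libraries as well as of the genes. The median log2 fold change was -0.25 for transcripts under 750 bases (387 transcripts), -0.08 at 750 to under 1500 bases (1317), 0.08 at 1500 to under 3000 bases (2331) and 0.30 at 3000 bases or more (1337). The order was the same in every pair but weaker in donor A, from -0.11 to 0.15, than in B, from -0.34 to 0.25, and in C, from -0.37 to 0.25. The median length of a transcript, weighted by reads, was 933, 1103 and 1041 bases in rDM A, B and C and 933, 1198 and 1203 bases without insulin. DESeq2 called 27 lower and 6 higher transcripts in the shortest class and 8 lower and 13 higher in the longest. With a curve on length removed from each library, the number of transcripts called by edgeR was also 3. So low a count cannot show whether the medians or the DESeq2 calls by class depend on length. The cause of the length difference was not tested.

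**Figure D5:**
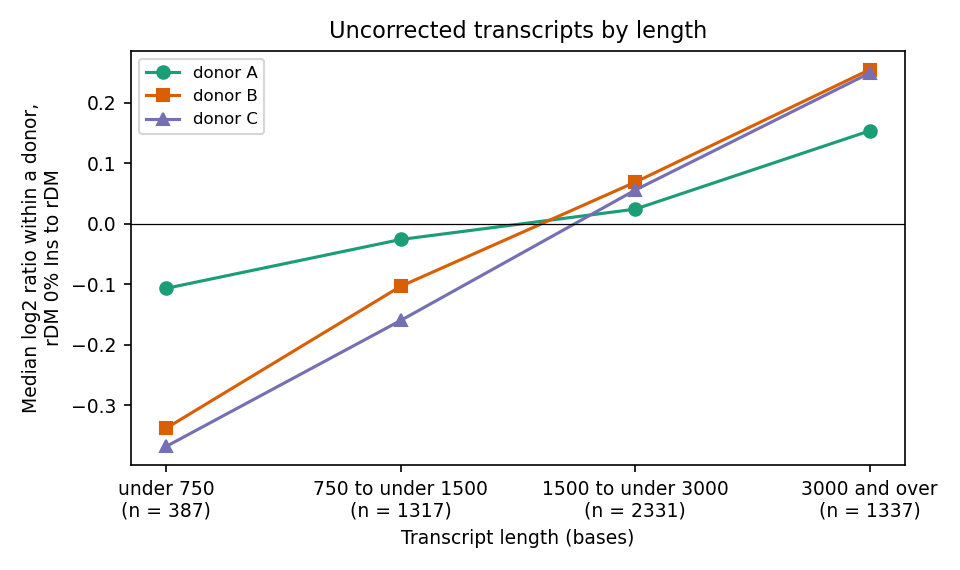
Median log2 ratio of rDM 0% Ins to rDM within each donor (y axis) for the uncorrected transcripts in 4 classes of length (x axis, bases); each line is a donor. The medians rise with length in every donor, by less in donor A (-0.11 to 0.15) than in B (-0.34 to 0.25) and C (-0.37 to 0.25).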

How the data were processed

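Libraries of 3 donors in 4 media were mapped by the authors with Minimap2 to the bovine transcriptome (ARS-UCD1.2 in the submitters' processing notes) and quantified with Salmon. The authors deposited estimated counts per transcript without batch correction, with TPM values beside them that were not used, and a table of CPM per gene after tximport and ComBat-seq. The sources used here do not say whether the medium was given to ComBat-seq. All columns of the table were mapped. Each CPM value was a whole multiple of 1 read (tolerance 0.01), and the recovered reads were 94.7% to 98.3% of the estimated ones. Because the table was corrected across libraries, its spread is not that of independent libraries, and p-values may be too small.

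CPM values were tested with limma 3.58.1 (R 4.3.3) on log2(CPM + 1), with all 12 libraries, the donor as a block, at least 5 CPM in at least 3 libraries and Benjamini-Hochberg adjusted p under 0.05. The planned design did not name limma's trend of the spread with the level, which is usual for log2 CPM. It was set after the data were seen, because it gave the calls of an earlier processing of these data, and with the number called by each setting known. Transcripts were tested with edgeR 4.0.16 on estimated counts rounded to whole numbers, and with DESeq2 1.42.0. sva 3.50.0 gave a ComBat-seq alternative. Scripts were tested on simulated data. The labels and the study give each letter as 1 donor and batch, and over 4242 transcripts the 18 pairs of libraries with a shared donor deviated in the same direction (correlations of 0.190 to 0.600).

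The comparison and the lists were chosen with earlier results of these data known. The rule named the largest and the most abundant called gene in each direction, at a mean of at least 20 CPM, since no identifier had a symbol. For that reason the 23 gene lists written and the cell type markers were not analysed here.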

Additional observations from a re-analysis of the deposited data

How the results depend on the processing

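The donor block pairs the libraries, and without the replicate block limma called 296 genes in place of 140, DESeq2 without it called 337, and edgeR called 0 transcripts in place of 3 (327 at an unadjusted p under 0.05). At an adjusted p under 0.01, 38 genes were called, and without the trend of the spread, which the planned design did not name and which was set after seeing the data, 2. Leaving out single libraries or donors gave 10 to 159 genes, the lowest without donor C, and 0 to 1 transcripts with edgeR (415 to 753 at an unadjusted p under 0.05). The share of called genes that were lower was 56.4% and became 74.7% with TMM, 71.1% with edgeR, 73.0% with DESeq2 and 70.6% with DESeq2 without the block on the recovered reads. It was 48.3% in limma without the block and 49.3% with the 6 libraries alone, both near an even split, and 45.5% to 67.9% with libraries or donors left out. The median absolute log2 fold change of 0.51 became 0.28 with a pseudocount of 10 and 0.38 at a mean of at least 20 CPM, and 0.52 to 0.64 with donors left out. At a mean of at least 100 CPM, chosen after seeing the data, 663 genes in place of 1821 had the same sign in all pairs, since fewer genes entered. DESeq2 called 170 transcripts and edgeR with no filter on low counts 284, and the cause was not tested. The count of genes stayed within 1.5 times of 140 with the 6 libraries alone (150), edgeR (180) or DESeq2 (189) on the recovered reads, the pool as a term (126), pseudocounts of 0.1 (112) and 10 (173), no filter (160), at least 20 CPM (175) and equal depth (134, chosen after seeing the data). The limma fits among these all kept the trend, so they do not show how the count depends on it. None of the 4 genes given by identifier changed direction in the 22 fits. ENSBTAG00000052510 was called in 19, ENSBTAG00000011666 in 14, ENSBTAG00000037526 in 9 and ENSBTAG00000014824 in 6. Under 20 CPM the median SD of the paired ratios was 1.16, in which counting error and donor differences were not separated.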
